A study of Mus musculus with 12 samples.

Results

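The genes described here encode F-box proteins, the substrate receptors of SCF ubiquitin ligases. Members were all genes whose symbol begins with Fbxo, Fbxl or Fbxw followed by a digit, except Fbxo5 and Fbxo43, and that had a probe set naming 1 gene symbol. This rule found 69 of the 19946 genes measured, with 34 Fbxo, 18 Fbxl and 17 Fbxw symbols. RefSeq lists 68 of them as protein coding. The remaining symbol, Fbxl12os, names an opposite-strand transcript that RefSeq lists as a transcribed pseudogene, and it is described apart.

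In an SCF ligase, the scaffold Cul1 holds the RING protein Rbx1 at one end and the adaptor Skp1 at the other, and the F-box of the receptor binds Skp1. The rest of the receptor binds the protein to be ubiquitinated, often after it has been phosphorylated. The name of a member gives the substrate-binding part: WD40 repeats in Fbxw proteins, leucine-rich repeats in Fbxl proteins and other domains in Fbxo proteins. SCF ligases are best known for removing cell cycle regulators, and protein turnover by ubiquitin accompanies meiosis and the remodelling of the spermatid. Fbxo5 and Fbxo43, left out of the members, inhibit the anaphase-promoting complex and are given with the other pathway genes.

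Transcripts were measured in whole testes of adult male mice of a mixed 129/C57BL6 background on 12 Affymetrix Mouse Gene 1.0 ST arrays. All 12 samples came from animals that had received WIN 18,446, a blocker of retinoic acid synthesis, at 100 ug per g of body weight daily for 7 days from 2 to 8 days postpartum, and then 200 ug of retinoic acid at 9 days postpartum. After 43 to 49 days of recovery, the tubules of such a testis are mostly at adjoining stages of the cycle of the seminiferous epithelium, and 2 samples were placed by morphology in each of 6 stage groups, from XII-I and II-IV over IV-VI and VII to VIII-IX and IX-XI. No sample was left unsynchronized. Whether the samples of 1 group came from different animals is not stated, so the p-values here reflect the spread among these samples alone, which may be technical.

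Levels are given as log2 intensity, with an SD taken over the 2 samples of a group. Array medians were 296.9 to 309.1 on the linear scale. Precision is limited by how few arrays there are. Levels of different genes were not compared. In a whole testis, fewer cells of a type and less RNA per cell cannot be told apart. Over all genes, 9 of the 12 arrays correlated best with an array of another group. Over the 69 members, 9 of 12 were also nearest to an array of another group, by the root mean square difference. Among these, VIII-IX samples 1 and 2 both lay nearest to IX-XI sample 1, and XII-I sample 2 and II-IV sample 2 lay nearest to each other.

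Each of the lists for spermatocytes, round spermatids and elongating spermatids held 8 marker genes, and all were measured. The summed linear intensity of the 8 round spermatid markers lay between 20814 and 24400 in XII-I and between 37488 and 41680 in VII. That of the 8 elongating spermatid markers lay between 60349 and 64429 in IV-VI and between 82790 and 84310 in VIII-IX. Of these 8, Tnp1 (7.01-fold) and Tnp2 (3.54-fold) passed the F test, both highest in VIII-IX, while Odf1 was highest in IV-VI and Akap4 in II-IV without passing. Among the 8 round spermatid markers, only Spaca4 passed. Tssk1 had its highest mean in IX-XI and Tssk2 in VIII-IX, and Acr and Crem had their lowest in VIII-IX. The sum of the 8 spermatocyte markers lay between 40049 and 47092 over all arrays. Among them Ccna1 ranged 2.94-fold, highest in XII-I and lowest in VII (adjusted p = 0.023 in limma's F test). Piwil1 ranged 2.12-fold, highest in IX-XI and lowest in XII-I (adjusted p = 0.0592 in that test). For other cells, 5 of 7 Leydig markers were measured, with sums of 11634 to 16727 in VII and 6511 to 9991 in IX-XI, and 9 of 10 Sertoli markers, with 16763 to 22149 in VII and 14867 to 14992 in XII-I. In the blood list, only Alas2 of 4 genes was measured, at 1058 to 1288 in II-IV and 164 to 244 in VIII-IX. Between their highest and lowest groups, the mean sums of the other lists (peritubular myoid cells, macrophages, endothelium, epididymis and spermatogonia) differed by 1.06-fold for spermatogonia to 1.31-fold for macrophages. Single genes of these lists ranged more widely. Stra8, a spermatogonia marker, ranged 2.53-fold, at means of 8.4 in IX-XI and 8.39 in VIII-IX (adjusted p = 0.0111 in limma's F test). In that test Rnase10 of the epididymis list (3.78-fold, highest in XII-I) had an adjusted p of 0.0234. Adgre1 of the macrophage list (1.88-fold, highest in II-IV) had 0.0243. No other gene of these lists passed. The VII samples held both the lowest and the highest macrophage sum of all arrays, at 1411 in sample 1 and 2491 in sample 2, and VII sample 2 was also the higher of the pair for the Leydig and Sertoli lists. These arrays give no detection call, so no marker could be called absent. The part of any cell type in the results below was not tested.

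The 250 bases before a start in the RefSeq promoter table (GRCm38.p6) are shown for 5 of the 6 members that ranged at least 2-fold over the cycle and passed the F test described below. They are given because Fbxo39 had the widest range of all members, because Fbxo2 and Fbxo44 are neighbours on chromosome 4 read in opposite directions, and because Fbxo46 and Fbxl16 had their highest means in VIII-IX as Fbxo39 and Fbxo2 did. The sixth is Fbxo15. Capitals mark matches, on either strand, to the RFX motif core GTTGCC (reverse complement GGCAAC), the cAMP response element TGACGTCA and the CCAAT box CCAAT (reverse complement ATTGG), which do not overlap in these windows. For Fbxo44, the outermost of its 3 starts in the table is shown. The start used lies inside the RefSeq span of the gene for Fbxo2 (470 bases from its outer end) and Fbxo44 (89 bases), and at the outer end for Fbxo39, Fbxo46 and Fbxl16.
Fbxo39 (chr11:72314194-72314443, forward strand): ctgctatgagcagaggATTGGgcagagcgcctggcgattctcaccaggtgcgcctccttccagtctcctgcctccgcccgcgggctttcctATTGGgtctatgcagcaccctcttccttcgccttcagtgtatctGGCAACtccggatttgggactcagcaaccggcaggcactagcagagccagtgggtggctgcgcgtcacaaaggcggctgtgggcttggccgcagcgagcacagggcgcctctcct
Fbxo2 (chr4:148160418-148160667, forward strand): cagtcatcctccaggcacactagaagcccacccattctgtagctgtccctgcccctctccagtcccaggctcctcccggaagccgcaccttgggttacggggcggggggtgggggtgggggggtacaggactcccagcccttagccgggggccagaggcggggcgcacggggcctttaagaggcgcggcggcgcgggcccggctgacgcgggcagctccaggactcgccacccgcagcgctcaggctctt
Fbxo44 (chr4:148160095-148160344, reverse strand): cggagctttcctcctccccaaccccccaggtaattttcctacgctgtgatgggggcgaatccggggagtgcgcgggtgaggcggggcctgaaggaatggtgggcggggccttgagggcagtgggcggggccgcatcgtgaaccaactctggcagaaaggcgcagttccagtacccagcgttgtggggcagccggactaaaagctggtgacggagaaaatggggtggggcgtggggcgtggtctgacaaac
Fbxo46 (chr7:19119609-19119858, forward strand): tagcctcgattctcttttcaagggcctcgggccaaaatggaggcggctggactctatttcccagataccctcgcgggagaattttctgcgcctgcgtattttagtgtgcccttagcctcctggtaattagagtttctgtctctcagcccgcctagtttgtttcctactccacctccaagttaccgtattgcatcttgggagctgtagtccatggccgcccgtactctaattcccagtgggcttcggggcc
Fbxl16 (chr17:25808211-25808460, forward strand): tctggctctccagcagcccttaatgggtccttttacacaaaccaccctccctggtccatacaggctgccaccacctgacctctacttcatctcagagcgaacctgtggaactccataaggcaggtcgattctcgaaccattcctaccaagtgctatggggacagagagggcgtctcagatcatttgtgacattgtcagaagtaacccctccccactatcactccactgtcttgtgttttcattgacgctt
Only the Fbxo39 window held any of these motifs. Its matches to the CCAAT box began 234 and 159 bases before the start, and its match to the RFX motif core 115 bases before it. Over all 32851 windows of this length, 33.8% held the CCAAT box, 10.4% the RFX motif core and 1.55% the cAMP response element. The 52 members with an entry in the table had 73 windows, of which 15 held the CCAAT box (13 genes, Fbxo44 among them at another start), 8 the RFX motif core and 1, of Fbxw9, the cAMP response element. The GC content was 71.6% in the Fbxo2 window, 64.4% for Fbxo44, 63.2% for Fbxo39, 53.6% for Fbxo46 and 51.2% for Fbxl16, against a median of 52.4% over all windows and 56.8% over those of members. A match is a description of these letters and not a binding site.

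F-box transcripts did not move as a block over the cycle. The widest change was that of Fbxo39, which was 5.81-fold higher in VIII-IX than in II-IV. Fbxo46, Fbxl16, Fbxo2 and Fbxo44 were also high in VIII-IX and IX-XI, each with a range of at least 2-fold, while Fbxl20, Fbxo28 and Fbxw7 were highest in XII-I and Fbxl2 and Fbxl6 in IV-VI. In limma's moderated F test among the 6 groups, 16 of the 69 members passed at a p under 0.05 after Benjamini-Hochberg adjustment over all genes, or 23.2%, against 19.9% of all genes. Of the 16, 6 also ranged at least 2-fold, or 8.7% of the members, against 7.5% of all genes. Both shares lie near those of all genes. The median range of the 6 group means was 0.37 log2 for the members and 0.34 for all genes.

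**Figure D1:**
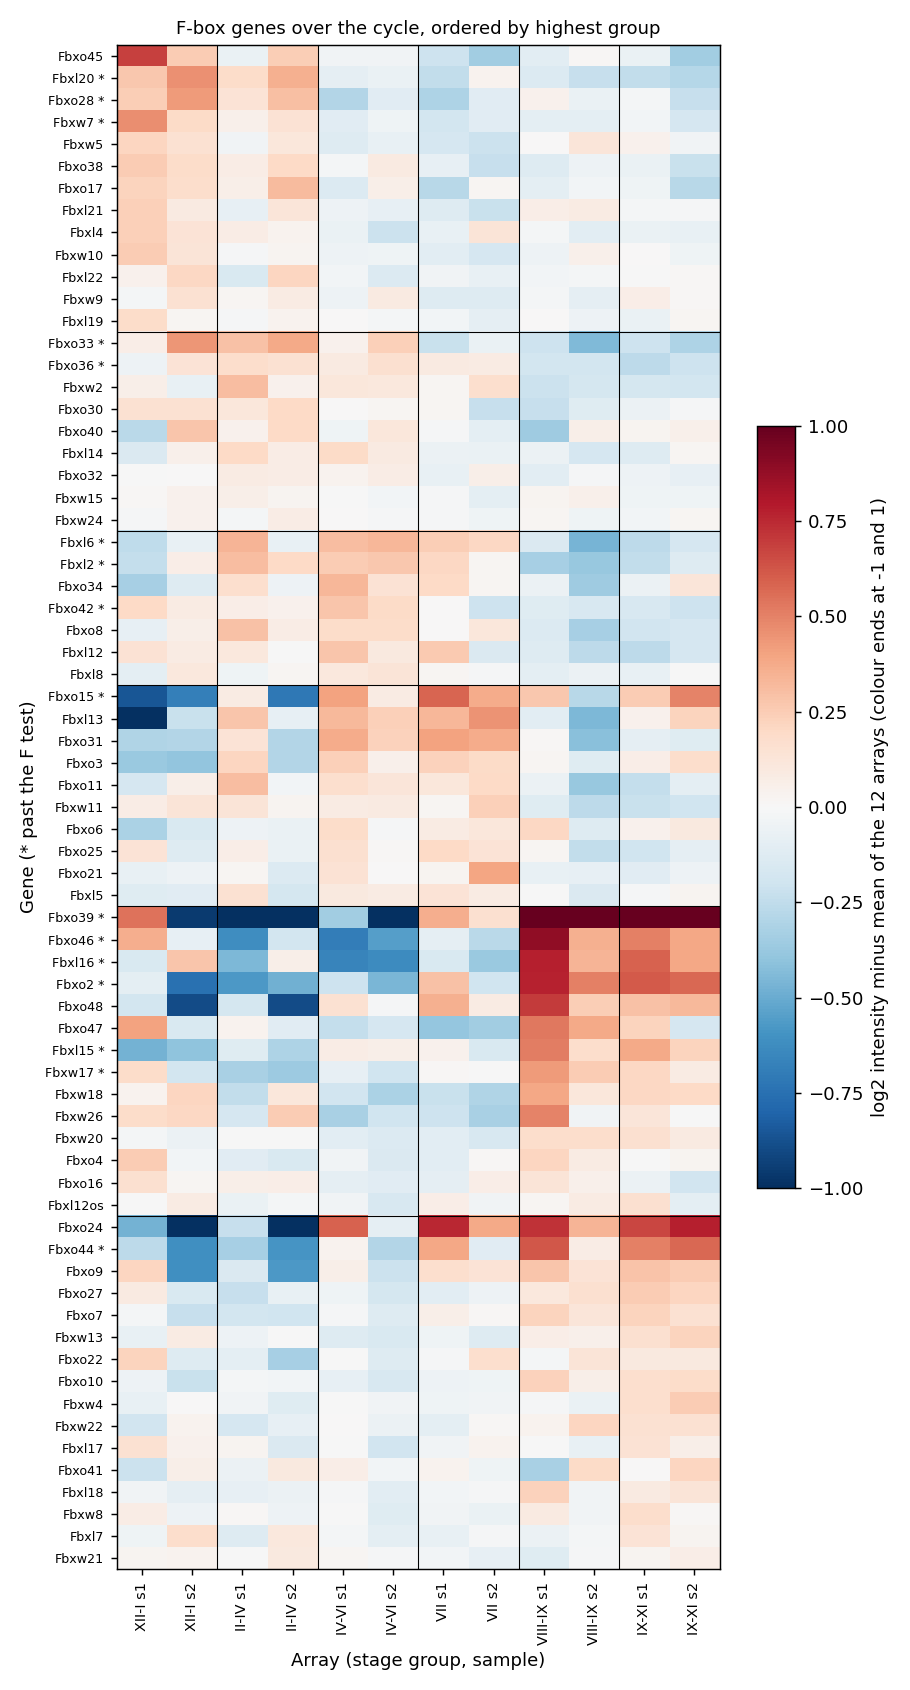
Heat map of the 69 F-box genes (rows, ordered by the group with the highest mean, then by range) on the 12 arrays (columns, 2 per stage group); colour gives log2 intensity minus the gene's mean over the 12 arrays, and an asterisk marks the 16 genes past the F test. Fbxo39, at 12.08 to 12.14 in VIII-IX and 9.52 to 9.63 in II-IV, goes past the ends of the colour scale. None of the 17 Fbxw genes ranges 2-fold, against 9.37% of all genes.

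By the group with the highest mean, the members spread over the cycle. Of the 16 that passed, 6 were highest in VIII-IX (Fbxo39, Fbxo46, Fbxl16, Fbxo2, Fbxl15 and Fbxw17), 3 in XII-I (Fbxl20, Fbxo28 and Fbxw7), 3 in IV-VI (Fbxl6, Fbxl2 and Fbxo42), 2 in II-IV (Fbxo33 and Fbxo36), Fbxo15 in VII and Fbxo44 in IX-XI. The share in VIII-IX was 37.5% of the 16. Over all 3973 genes that passed, 20.4% were highest in VIII-IX, 31.9% in XII-I and 16.6% in IV-VI. II-IV had 13.1%, IX-XI 12.6% and VII 5.46% of them. Differences from these shares were not tested. The test was repeated with each of the 12 arrays dropped in turn, below called leave-outs, and the count of members past it depended on single arrays. Dropping IX-XI sample 1 left 0 and dropping IX-XI sample 2 left 2. It was 3 when either IV-VI sample was dropped. With VIII-IX sample 1 dropped it was 4, with sample 2 of that group 5, and with VII sample 2 dropped 8. The count of 6 that also ranged 2-fold was then 0, 1, 2, 1, 4 and 5. Over all genes the share past the test was then 7.74%, 8.66%, 8.25% and 7.99%, 7.63%, 7.8% and 9.94%.

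Of the 9 members that ranged at least 2-fold at any p, 7 were Fbxo genes, which make up 34 of the 69 members. Over all genes, 9.37% ranged at least 2-fold. In the F test, 9 of the 34 Fbxo genes passed, or 26.5%, against 19.9% of all genes. These differences were not tested. Fbxo39 (probe set 10378078) measured 11.45 and 9.95 in XII-I, 9.52 and 9.63 in II-IV, 10.56 and 9.30 in IV-VI, 11.27 and 11.07 in VII, 12.14 and 12.08 in VIII-IX and 12 and 11.91 in IX-XI. Both VIII-IX samples lay above the other 10, the IX-XI samples followed closely, and the 2 samples of XII-I, like those of IV-VI, stood more than 1 log2 apart. Its mean was 12.11 ± 0.04 (SD, n = 2) in VIII-IX and 9.57 ± 0.08 in II-IV, and limma's F test gave an adjusted p of 0.0234. The call held in 8 of 12 leave-outs, with an adjusted p of at most 0.06. Against the mean of the other 5 groups, Fbxo39 was higher in VIII-IX by 1.44 ± 0.36 log2 (SE, n = 2 against 10; adjusted p = 0.044 in limma), or 2.72-fold. That call held in 4 of 12 leave-outs.

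Fbxo46 (10550597) measured 9.96 and 9.51 in XII-I, 8.97 and 9.41 in II-IV, 8.90 and 9.04 in IV-VI, 9.50 and 9.32 in VII, 10.48 and 9.95 in VIII-IX and 10.10 and 9.98 in IX-XI. It was lowest by mean in IV-VI, where II-IV sample 1 overlapped, and high in VIII-IX and IX-XI, where XII-I sample 1 overlapped. The range was 2.37-fold (adjusted p = 0.0221 in limma's F test, held in 9 of 12 leave-outs), and VIII-IX was higher than the other groups by 0.74 ± 0.17 log2 (SE; adjusted p = 0.032 in limma). This contrast held in 6 of 12 leave-outs, and without VIII-IX sample 1 the difference was 0.47 log2 (adjusted p = 0.27 in limma). Fbxo15 (10457077), a target of the pluripotency factor Oct4 in embryonic stem cells, measured 7.96 and 8.13 in XII-I, 8.90 and 8.10 in II-IV, 9.22 and 8.90 in IV-VI, 9.40 and 9.19 in VII, 9.09 and 8.54 in VIII-IX and 9.07 and 9.31 in IX-XI. Here XII-I was low with II-IV sample 2, and VII was highest, with overlap from IV-VI and IX-XI. The range was 2.37-fold (adjusted p = 0.0441, held in 2 of 12 leave-outs), and the XII-I mean differed from the other groups by -0.92 ± 0.20 log2 (SE; adjusted p = 0.029 in limma). Fbxo15 also fell by 1.14 log2 from IX-XI to XII-I (adjusted p = 0.027 in limma). The summed round spermatid markers, given above, were likewise low in XII-I and high in VII, though not every marker of that list followed this order.

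Fbxo2 and Fbxo44 share the F-box-associated domain, through which Fbxo2 binds the glycans of misfolded glycoproteins. Fbxo2 (10510299) measured 8.55 and 7.90 in XII-I, 8.07 and 8.17 in II-IV, 8.44 and 8.19 in IV-VI, 8.94 and 8.45 in VII, 9.42 and 9.15 in VIII-IX and 9.26 and 9.22 in IX-XI. All 4 samples of VIII-IX and IX-XI lay above the other 8. The range was 2.24-fold, from 8.12 ± 0.06 in II-IV to 9.28 ± 0.19 in VIII-IX (SD, n = 2; adjusted p = 0.0206 in limma's F test, held in 9 of 12 leave-outs). Fbxo44 (10518484) measured 9.97 and 9.62 in XII-I, 9.90 and 9.64 in II-IV, 10.27 and 9.94 in IV-VI, 10.62 and 10.12 in VII, 10.85 and 10.31 in VIII-IX and 10.74 and 10.81 in IX-XI. By mean it was highest in IX-XI and lowest in II-IV, and VIII-IX sample 2 lay among the VII samples. The range was 2-fold (adjusted p = 0.0412, held in 3 of 12 leave-outs). From IX-XI to XII-I, Fbxo2 fell by 1.02 log2 (adjusted p = 0.022 in limma) and Fbxo44 by 0.98 (adjusted p = 0.027), both kept in 9 of 12 leave-outs.

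The domain has 3 other mouse members among these genes. Fbxo6 lies next to Fbxo44 on chromosome 4, and Fbxo17 and Fbxo27 are neighbours on chromosome 7. None of the 3 passed the F test, with adjusted p = 0.298 for Fbxo6, 0.218 for Fbxo17 and 0.0893 for Fbxo27 in limma. Their ranges were 0.33, 0.36 and 0.39 log2. The values of Fbxo6 (10518473) were 9.08 and 9.25 in XII-I, 9.35 and 9.33 in II-IV, 9.58 and 9.39 in IV-VI, 9.48 and 9.51 in VII, 9.61 and 9.27 in VIII-IX and 9.44 and 9.50 in IX-XI. Both XII-I samples lay below the other 10, and the other groups overlapped. Fbxo27 (10551534) was at 8.64 and 8.60 in IX-XI, above the other 10 samples, of which the highest was at 8.54. Fbxo17 had its highest mean in XII-I and its lowest in IX-XI. The difference between these genes and Fbxo2 or Fbxo44 was not tested.

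**Figure D2:**
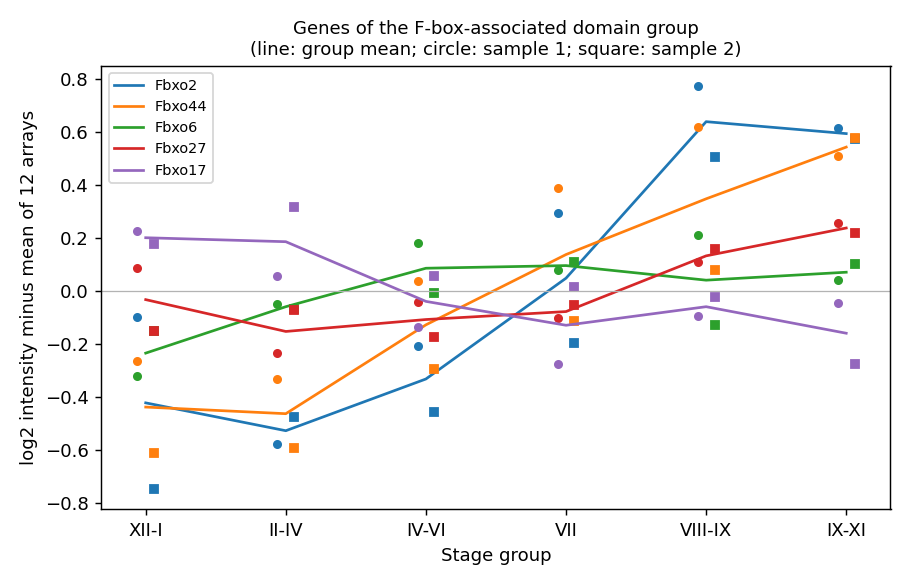
Log2 intensity minus the mean of 12 arrays for the 5 genes with the F-box-associated domain, by stage group; lines join group means, circles are sample 1 and squares sample 2. Fbxo2 and Fbxo44 lie below their own means in XII-I and II-IV and above them in VIII-IX and IX-XI, while Fbxo6, Fbxo17 and Fbxo27 range by 0.33 to 0.39 log2.

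Fbxo33, which targets the Y-box protein YB-1, ran the other way. Fbxo33 (10400546) measured 10.16 and 10.53 in XII-I, 10.38 and 10.47 in II-IV, 10.13 and 10.33 in IV-VI, 9.87 and 10.02 in VII, 9.88 and 9.65 in VIII-IX and 9.88 and 9.78 in IX-XI. Levels in VII, VIII-IX and IX-XI all lay below those in XII-I, II-IV and IV-VI. The range was 1.58-fold (adjusted p = 0.0324 in limma's F test, held in 4 of 12 leave-outs), and Fbxo33 rose by 0.52 ± 0.14 log2 (SE) from IX-XI to XII-I (adjusted p = 0.046 in limma, held in 1 of 12, with 0.33 log2 and adjusted p = 0.2 without XII-I sample 2). Fbxo28 (10360794) ranged 1.46-fold, with its highest mean in XII-I and lowest in VII (adjusted p = 0.0379). Fbxo42 (10509930), which binds p53, went from its highest mean in IV-VI to its lowest in IX-XI, by 1.34-fold (adjusted p = 0.0435). Fbxo36 (10347910) ranged 1.32-fold, with IX-XI at 12.35 and 12.40 below the other 10 samples (adjusted p = 0.0333). Fbxo28 and Fbxo42 passed in 1 of 12 leave-outs each and Fbxo36 in 3.

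Some Fbxo genes passed a contrast and not the F test. Fbxo45, which works with the ligase Mycbp2 in neurons, was higher in XII-I, where its mean exceeded the other groups by 0.57 ± 0.13 log2 (SE; adjusted p = 0.029 in limma), at 9.39 and 8.96 there. That call held in 8 of 12 leave-outs, and without XII-I sample 1 the difference was 0.35 log2 (adjusted p = 0.23 in limma). Fbxo3 was lower in XII-I, with a difference of -0.46 ± 0.12 log2 (adjusted p = 0.04 in limma), between -0.51 and -0.41 in the leave-outs. Fbxo38 rose by 0.36 log2 from IX-XI to XII-I (adjusted p = 0.044 in limma), by 0.28 to 0.43 in the leave-outs. Both calls were lost in most leave-outs. Fbxo47, which mouse spermatocytes need to complete meiotic prophase, measured 9.03 and 8.47 in XII-I, 8.66 and 8.51 in II-IV, 8.39 and 8.46 in IV-VI, 8.24 and 8.28 in VII, 9.15 and 9 in VIII-IX and 8.85 and 8.46 in IX-XI. Both VII samples lay below the other 10, and both VIII-IX samples lay above all VII samples. Fbxo47 rose by 0.81 ± 0.18 log2 (SE, n = 2 against 2) from VII to VIII-IX (adjusted p = 0.048 in limma, held in 4 of 12 leave-outs), the only member called at that step, where 3.93% of all genes were called, 2.27% higher and 1.66% lower. Its adjusted p in the F test was 0.0774.

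Fbxo24 had the second widest range of all members and did not pass. It is named after its values were seen, because its range of 3.45-fold goes with an adjusted p of 0.0637 in limma's F test. Fbxo24 (10534873), which is needed for normal sperm in mice, measured 10.63 and 9.45 in XII-I, 10.87 and 9.30 in II-IV, 11.69 and 11.01 in IV-VI, 11.85 and 11.48 in VII, 11.82 and 11.44 in VIII-IX and 11.77 and 11.88 in IX-XI. The 2 samples of XII-I and of II-IV differed by more than 1 log2 in each group, while VII, VIII-IX and IX-XI lay between 11.44 and 11.88. Fbxo48, also named after its values were seen, ranged 2.02-fold with an adjusted p of 0.0707.

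Among the leucine-rich repeat receptors, 5 of 18 Fbxl symbols passed the F test, or 27.8%, against 19.9% of all genes, a difference that was not tested. Fbxl16 (10442887) measured 7.43 and 7.86 in XII-I, 7.13 and 7.64 in II-IV, 6.92 and 6.95 in IV-VI, 7.43 and 7.21 in VII, 8.36 and 7.92 in VIII-IX and 8.17 and 7.97 in IX-XI. The IV-VI samples lay below the other 10 and the VIII-IX and IX-XI samples above the rest. Its range was 2.30-fold (adjusted p = 0.0242 in limma's F test, held in 7 of 12 leave-outs), and VIII-IX was higher than the other groups by 0.67 ± 0.16 log2 (SE; adjusted p = 0.041 in limma, held in 4 of 12 and at most 0.32). Fbxl15 (10463625), which targets the ligase Smurf1, measured 9.37 and 9.44 in XII-I, 9.72 and 9.54 in II-IV, 9.92 and 9.90 in IV-VI, 9.89 and 9.69 in VII, 10.36 and 10.02 in VIII-IX and 10.22 and 10.07 in IX-XI. XII-I lay below all other samples. Its range of 1.72-fold passed in 11 of 12 leave-outs, the most of any member (adjusted p = 0.0208, at most 0.052). Fbxl15 fell by 0.74 ± 0.13 log2 (SE) from IX-XI to XII-I (adjusted p = 0.012 in limma).

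Fbxl20, a receptor known from synapses, had group means that went down in the order of the cycle, from 10.30 in XII-I to 9.67 in IX-XI. Fbxl20 (10390574) measured 10.21 and 10.39 in XII-I, 10.12 and 10.29 in II-IV, 9.85 and 9.87 in IV-VI, 9.69 and 9.97 in VII, 9.80 and 9.71 in VIII-IX and 9.69 and 9.65 in IX-XI. XII-I and II-IV lay above the other 8 samples. The range was 1.54-fold (adjusted p = 0.0235 in limma's F test, held in 7 of 12 leave-outs), and the rise from IX-XI to XII-I was 0.63 ± 0.11 log2 (SE; adjusted p = 0.013). Fbxl2, anchored to membranes by a lipid tail, and Fbxl6 were high in the middle of the cycle. Fbxl2 (10597377) measured 8.16 and 8.47 in XII-I, 8.71 and 8.60 in II-IV, 8.65 and 8.67 in IV-VI, 8.61 and 8.42 in VII, 8.07 and 8.02 in VIII-IX and 8.15 and 8.27 in IX-XI. VIII-IX lay below the other 10 samples, by -0.43 ± 0.09 log2 (SE) against the other groups (adjusted p = 0.029 in limma), and the F test gave an adjusted p of 0.0258, held in 6 of 12 leave-outs. Fbxl6 (10429957) measured 9.17 and 9.35 in XII-I, 9.76 and 9.35 in II-IV, 9.73 and 9.75 in IV-VI, 9.67 and 9.63 in VII, 9.28 and 8.96 in VIII-IX and 9.16 and 9.25 in IX-XI. IV-VI and VII were high with II-IV sample 1, and VIII-IX sample 2 was lowest (range 1.54-fold, adjusted p = 0.0471, held in 2 of 12).

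Fbxl13, a subunit of the nexin-dynein regulatory complex of motile cilia and flagella, passed the contrast of XII-I. It measured 11.03 and 11.84 in XII-I, 12.34 and 11.98 in II-IV, 12.38 and 12.30 in IV-VI, 12.39 and 12.51 in VII, 11.95 and 11.61 in VIII-IX and 12.10 and 12.28 in IX-XI. XII-I sample 1 was far below every other array, and both VII samples lay above the other 10. The XII-I mean differed from the other groups by -0.75 ± 0.19 log2 (SE; adjusted p = 0.037 in limma, held in 4 of 12 leave-outs), and the F test gave an adjusted p of 0.067. Without XII-I sample 1 the difference was -0.34 (adjusted p = 0.31 in limma), and without sample 2 of that group it was -1.15 (adjusted p = 0.05).

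Of the 17 Fbxw genes measured, Fbxw17 and Fbxw7 passed the F test, or 11.8%, against 19.9% of all genes. Both are among the 9 Fbxw genes outside the chromosome 9 cluster described below, or 22.2% of those 9, and 0 of the 8 in the cluster passed. No Fbxw gene ranged 2-fold, at any p, against 9.37% of all genes. Differences between these shares were not tested. Fbxw17 (10405125) measured 8.21 and 7.84 in XII-I, 7.70 and 7.66 in II-IV, 7.94 and 7.83 in IV-VI, 8.04 and 8.02 in VII, 8.45 and 8.28 in VIII-IX and 8.23 and 8.11 in IX-XI. Both VIII-IX samples lay above the other 10 and both II-IV samples below them, with a range of 1.61-fold (adjusted p = 0.0376 in limma, held in 2 of 12 leave-outs). Fbxw7 (10492826), the receptor for cyclin E, Myc and Notch, measured 9.08 and 8.81 in XII-I, 8.67 and 8.76 in II-IV, 8.50 and 8.57 in IV-VI, 8.43 and 8.50 in VII, 8.52 and 8.52 in VIII-IX and 8.59 and 8.45 in IX-XI. XII-I lay above all other samples, by 0.39 ± 0.08 log2 (SE) against the other groups (adjusted p = 0.025 in limma, held in 9 of 12 leave-outs, with 0.26 log2 and adjusted p = 0.19 without XII-I sample 1), and the adjusted p of the F test was 0.0499, held in 1 of 12. A dimmer probe set of Fbxw7 (10499093) ranged by 0.14 log2 and was highest in IX-XI, so the 2 sets disagree, and the adjusted p was 0.29 with their mean. Fbxw10 was higher in XII-I by 0.23 ± 0.06 log2 (SE; adjusted p = 0.048 in limma, held in 2 of 12).

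A cluster of closely related Fbxw genes on chromosome 9 gave 8 of the 17, Fbxw13, Fbxw15, Fbxw18, Fbxw20, Fbxw21, Fbxw22, Fbxw24 and Fbxw26. Their probe sets may read several copies. None passed the F test, with adjusted p from 0.051 to 0.99 in limma, and their ranges ran from 0.05 log2 for Fbxw24 to 0.51 for Fbxw18. Their group means lay between 4.99 and 7.45 log2, in the lower part of the span of all genes, 4.65 to 13.94 log2. Fbxw18, Fbxw20 and Fbxw26 had their highest means in VIII-IX and 5 of the 8 their lowest in VII.

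**Figure D3:**
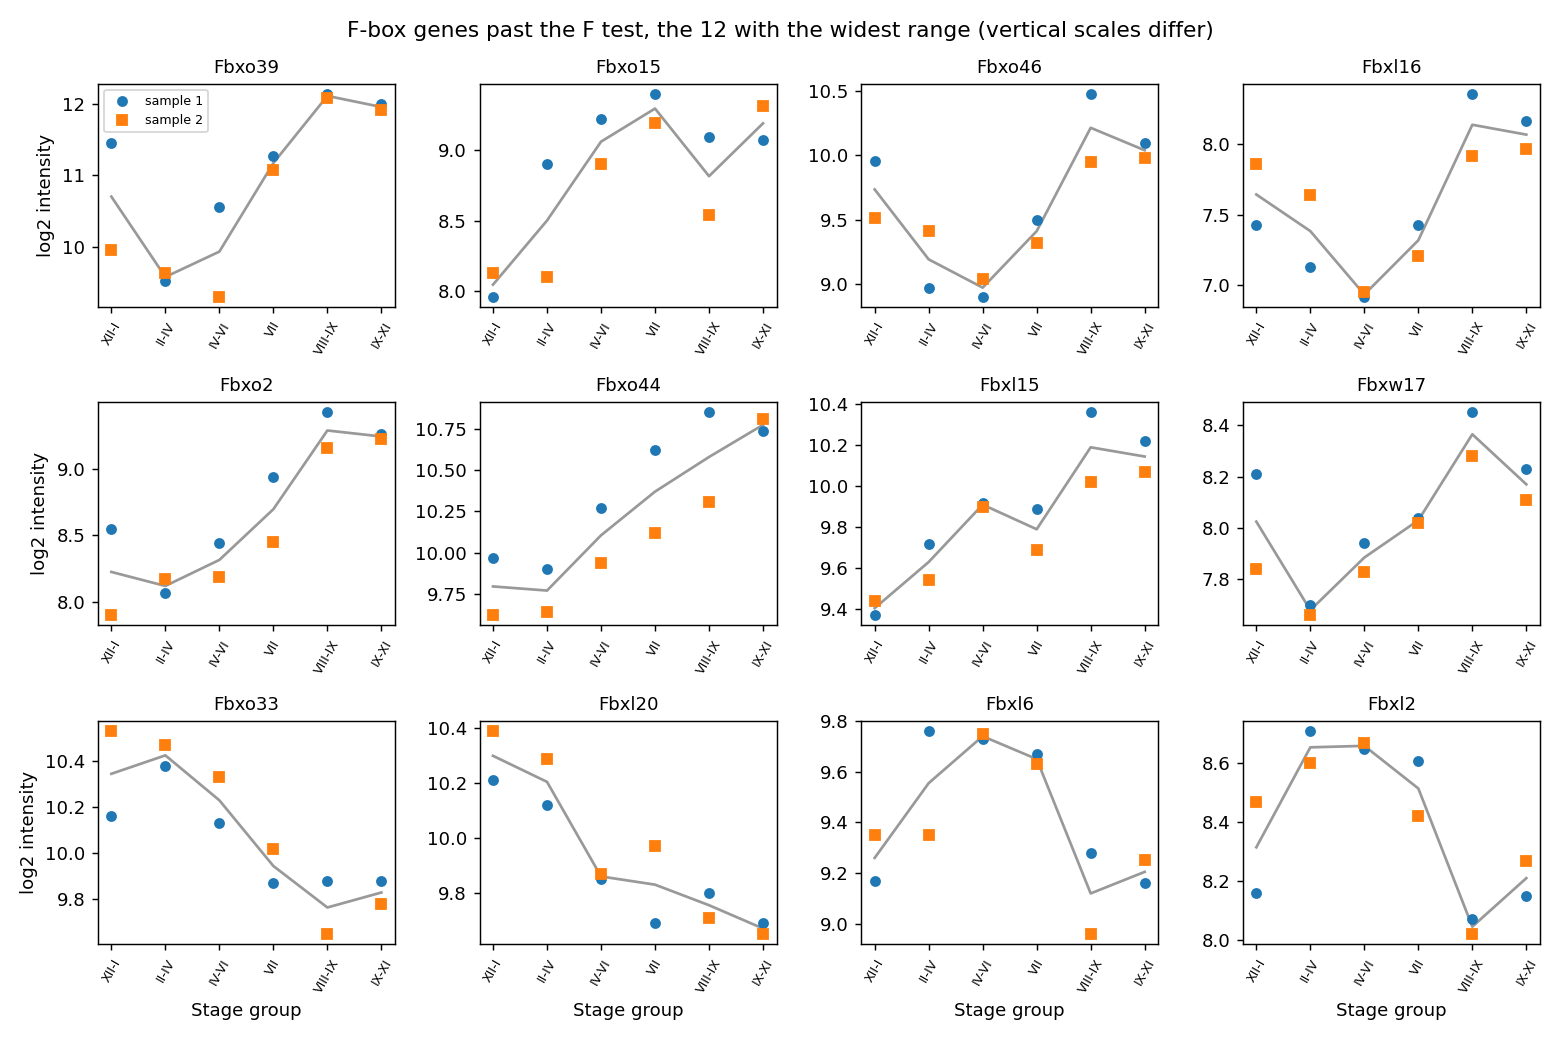
Log2 intensity of the 12 widest-ranging F-box genes that passed the F test, by stage group; circles are sample 1, squares sample 2 and the line joins group means, with a separate vertical scale in each panel. Fbxo39 goes from 9.52 and 9.63 in II-IV to 12.14 and 12.08 in VIII-IX, and Fbxl20 from 10.21 and 10.39 in XII-I to 9.69 and 9.65 in IX-XI.

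Counted by contrast, calls fell into few places in the cycle. Against the other 5 groups, 5 members were higher in XII-I (Fbxl20, Fbxo28, Fbxo45, Fbxw10 and Fbxw7) and 4 lower (Fbxl13, Fbxl15, Fbxo15 and Fbxo3), or 7.25% and 5.8%, against 7.51% and 3.33% of all genes. In VIII-IX, 6 were higher (Fbxo39, Fbxo2, Fbxo46, Fbxl16, Fbxl15 and Fbxw17) and Fbxl2 was lower, or 8.7% and 1.45%, against 3.53% and 4.31% of all genes. In IX-XI, Fbxo36 was lower by a log2 difference of -0.29, where 3.69% of all genes were called, 1.79% lower and 1.9% higher, and this call held in 2 of 12 leave-outs. In II-IV, IV-VI and VII, limma called 0 members and 0 of all genes, and 20, 16 and 15 members had an unadjusted p under 0.05. The share of all genes with such a p was not counted, so these 3 counts cannot be read as particular to the members. The differences not yet given were, in log2, 0.43 for Fbxl20, 0.40 for Fbxo28 and -0.53 for Fbxl15 in XII-I, and 0.76 for Fbxo2, 0.41 for Fbxl15 and 0.40 for Fbxw17 in VIII-IX. The VIII-IX calls held in 7 of 12 leave-outs for Fbxo2, 4 for Fbxl15 and 3 for Fbxw17, and that of Fbxl15 was 0.24 (adjusted p = 0.33 in limma) without VIII-IX sample 1. The summed elongating spermatid markers were also highest in VIII-IX, as given above, though limma called 0 of those 8 markers higher there. The summed spermatocyte markers had their highest mean in VIII-IX too, 1.09-fold above their lowest, in VII. The part of either cell type in these calls was not tested. For the contrasts, the share of all genes called was not counted in the leave-outs. The shifts in the member counts that follow therefore cannot be read as particular to F-box genes. The XII-I count of 9 became 0 when XII-I sample 1 was left out and 3 when its partner was. It was 14 after II-IV sample 2 was dropped, 1 after IV-VI sample 1 or IX-XI sample 2, 5 after VII sample 1 and 4 after VIII-IX sample 1. The VIII-IX count of 7 was 0 without IV-VI sample 2, either VIII-IX sample or IX-XI sample 2, 2 without VII sample 2, 3 without IV-VI sample 1 or IX-XI sample 1, 4 without VII sample 1 and 11 without XII-I sample 1.

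Between neighbouring groups, the step from IX-XI to XII-I held 10 of the 11 calls. Fbxl20, Fbxo28, Fbxo33, Fbxo38, Fbxo45 and Fbxw7 rose and Fbxl15, Fbxo15, Fbxo2 and Fbxo44 fell, or 8.7% and 5.8%, against 7.33% and 4.63% of all genes. The rises not yet given were 0.68 log2 for Fbxo45, 0.45 for Fbxo28 and 0.42 for Fbxw7. In the leave-outs they were 0.46 to 0.89, 0.35 to 0.56 and 0.28 to 0.55. None of these calls held in every leave-out, and that of Fbxo28 was lost in most. At the steps from XII-I to II-IV, II-IV to IV-VI, IV-VI to VII and VIII-IX to IX-XI, limma called 0 members and 0 of all genes, and 9, 4, 2 and 3 members had an unadjusted p under 0.05. The share of all genes with such a p was not counted, nor was their share of step calls in the leave-outs that follow. The 11 calls became 0 when either IX-XI sample was dropped, 6 for either of IV-VI and 7 for either of VIII-IX. They became 17 with XII-I sample 1 dropped and 20 for either sample of II-IV.

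Of the 69 members, 53 did not pass the F test, with ranges from 0.05 to 1.79 log2 and a median of 0.33. Among the well-studied ones, Fbxo7, a receptor that also binds a proteasome regulator, ranged 1.29-fold with an adjusted p of 0.0614 in limma, at 9.70 to 9.72 in II-IV and 10.05 to 10.12 in IX-XI. Fbxw11, a close relative of Btrc that binds beta-catenin, ranged 1.27-fold (adjusted p = 0.0625) and lay between 9.01 and 9.15 in VIII-IX and IX-XI and between 9.29 and 9.51 on the other arrays. Fbxl5, the iron sensor that removes the iron regulatory protein Ireb2, ranged 1.17-fold (adjusted p = 0.524). Fbxo11 ranged 1.30-fold (adjusted p = 0.197) and Fbxo22 1.25-fold (adjusted p = 0.446). The opposite-strand transcript Fbxl12os ranged 1.11-fold (adjusted p = 0.811). Apart from the tests, 14 members (20.3%) had both samples of their highest group above the other 10, against 18.5% of all genes, and 13 (18.8%) both samples of their lowest group below them, against 16.4%.

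The partners of the receptors were read from lists of pathway genes. Of 10 SCF core and partner genes, 5 passed the F test (Cul7, Ube2r2, Cdc34, Cks1b and Glmn), and the median range of the 10 was 0.5 log2. Over all genes, 19.9% passed. Differences between the lists and all genes were not tested. The core subunits Skp1, Cul1 and Rbx1 did not pass, with adjusted p = 0.0773, 0.136 and 0.889 in limma. Cul7, the scaffold that pairs with Fbxw8, ranged 1.56-fold and was highest in II-IV, and Fbxw8 itself ranged by 0.15 log2. Cdc34, a ubiquitin-conjugating enzyme of SCF ligases, ranged 1.70-fold and was highest in VIII-IX. Against the other groups, 1 gene of this list was higher in XII-I, 2 were lower in VIII-IX and 1 was lower in IX-XI. Over all genes, these shares were 7.51%, 4.31% and 1.79%.

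Of 21 measured genes of cullin neddylation and receptor exchange, 5 passed (Nedd8, Ube2f, Dcun1d3, Cand1 and Cops7b), against 19.9% of all genes. The median range of the list was 0.39 log2. Cand1, which swaps receptors on Cul1, ranged 1.76-fold, from 11.80 ± 0.08 (SD, n = 2) in XII-I down to 10.98 ± 0.18 in IX-XI (adjusted p = 0.0143 in limma's F test). Dcun1d3, a neddylation cofactor, ranged 1.87-fold and was highest in VIII-IX, at 11.38 ± 0.03, and lowest in II-IV, at 10.48 ± 0.21. Ube2f, a Nedd8-conjugating enzyme, ranged 1.61-fold from XII-I down to IX-XI. Calls in this list were 4 higher and 1 lower for XII-I, 1 higher and 1 lower in VIII-IX and 1 lower in IX-XI. In the same order, the shares of all genes were 7.51% and 3.33%, 3.53% and 4.31%, and 1.79%.

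Of 8 F-box genes left out by the rule or filed under other symbols, 5 passed (Skp2, Btrc, Ccnf, Kdm2b and Fbxo43), against 19.9% of all genes. The median range of the list was 0.86 log2. Ccnf, cyclin F, measured 10.45 and 10.46 in XII-I and 8.59 and 8.39 in IX-XI, a range of 3.90-fold (adjusted p = 0.0154 in limma's F test). II-IV sample 2, at 10.51, matched XII-I, while II-IV sample 1 was at 9.52. Fbxo43 ranged 3.02-fold and was highest in VIII-IX, at 11.10 and 11.26, and lowest in II-IV, at 9.61 and 9.57 (adjusted p = 0.0393). Its XII-I samples stood apart, at 11.15 and 9.91, as those of Fbxo39 did. Fbxo5 did not pass (adjusted p = 0.227). Skp2, the receptor for the inhibitor p27, ranged 2.25-fold and was highest in VIII-IX, and Kdm2b, a histone demethylase with an F-box, ranged 1.68-fold and was highest in XII-I. In this list 3 genes were higher in XII-I and 1 in VIII-IX, against 7.51% and 3.53% of all genes.

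Of 25 measured genes for textbook SCF substrates, 12 passed, against 19.9% of all genes, a difference that was not tested. The median range of the list was 0.57 log2. Ccne2, a cyclin E, ranged 2.63-fold, from its highest mean in IX-XI to its lowest in XII-I. The brighter probe set of its receptor Fbxw7 was highest in XII-I, and the dimmer set in IX-XI. Ccne1, the other cyclin E of the list, named after its values were seen, was highest in XII-I and lowest in VII, as the brighter Fbxw7 set was (1.62-fold, adjusted p = 0.0401 in limma's F test). Rrm2, a ribonucleotide reductase subunit bound by cyclin F, ranged 2.07-fold and was highest in XII-I, as Ccnf was. Ireb2, the iron regulatory protein bound by Fbxl5, ranged 2.00-fold and was highest in VII. Per1, a circadian clock protein bound by Btrc, had its highest mean in IX-XI and a range of 1.98-fold. Transcript levels say nothing of the proteins that these receptors bind. Calls in this list were 3 higher and 3 lower for XII-I, 4 lower in VIII-IX, and 2 higher and 2 lower in IX-XI. In the same order, the shares of all genes were 7.51% and 3.33%, 4.31%, and 1.9% and 1.79%.

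**Figure D4:**
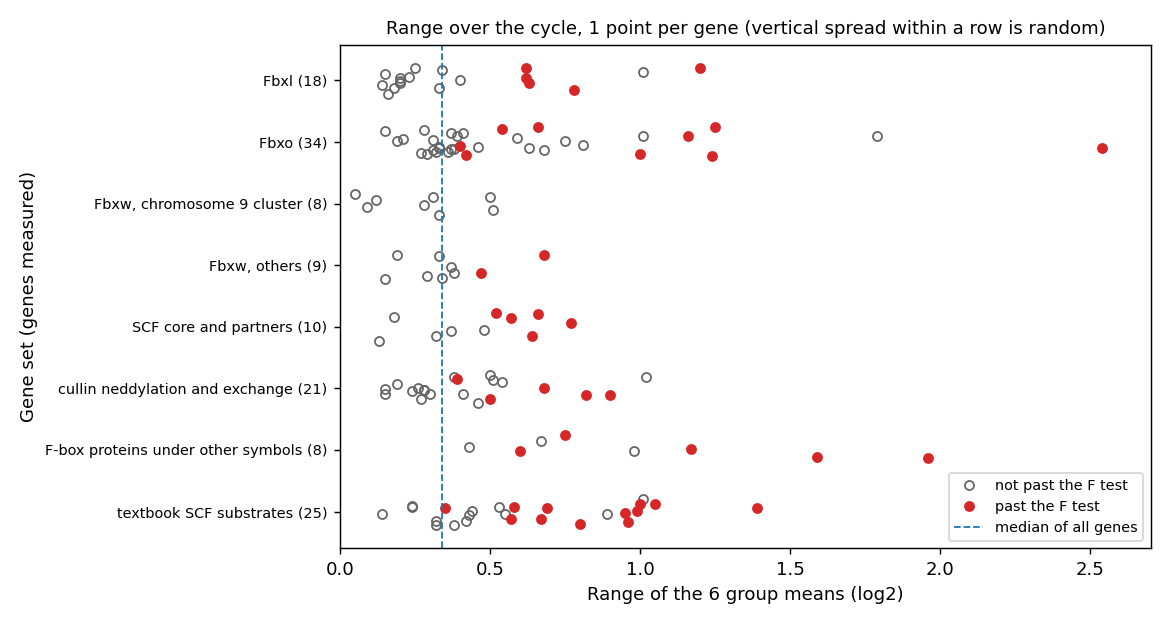
Range of the 6 group means in log2 (horizontal axis), 1 point per gene, for the F-box subfamilies and the 4 pathway lists; filled points passed the F test, and the dashed line is the median range of all genes, 0.34. Fbxo39 lies farthest right at 2.54, and the 8 Fbxw genes of the chromosome 9 cluster lie between 0.05 and 0.51.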

How the data were processed

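Whole-testis RNA of 12 samples (100 ng each, amplified, 3.75 ug of cDNA biotin labelled) was hybridised to 12 arrays, per the labels' protocols. Intensity values, deposited by the authors as 1 table, come from RMA (background correction, quantile normalization, probe summary) in an unstated version, per the submitters' processing notes. The deposited intensity values are linear, from 24.97 to 21760, and were transformed to log2 with nothing added. RMA makes the arrays' distributions alike, so changes are relative to other transcripts.

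Of 28853 probe sets, 21797 named 1 gene symbol, 1613 several and 5443 were not listed, and the latter kinds were left out. Where a gene had several sets (999 genes), the brightest was kept, giving 19946 genes. Symbols were compared with RefSeq through Entrez IDs, and 0 changed. No source used here gives the annotation's genome build. Members Fbxl7, Fbxo31 and Fbxw7 had more than 1 set. Fbxw14, Fbxw16, Fbxw19 and Fbxw28 shared sets of several symbols and were not members. Of the members, 52 had promoter sequences.

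With limma 3.58.1 in R 4.3.3, 6 group means were fitted to all 12 arrays and all genes (6 residual degrees of freedom), with an F test, contrasts of a group against the average of the other 5 and against the preceding group. P-values were Benjamini-Hochberg adjusted over all genes per test, at 0.05. A fold is 2 to the power of the log2 difference. The fit was tested on simulated data. Leave-outs drop 1 array, after which the lone sample of its group is assumed to vary like the others. Named genes were every member past the F test, the 12 of widest range with every sample, members past a contrast, well-studied members, of which Fbxw7 passed and Fbxo47 is given with its contrast, and up to 4 genes past the F test per pathway list. Skp1, Cul1, Rbx1, Fbxo5 and Ccne1 are given besides the rule. An item withheld from this work is not reported here. The members and lists were chosen with earlier results of these data known. Alternatives covered normalization, filtering, probe sets, a replicate block, array weights, the prior and left-out arrays.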

Additional observations from a re-analysis of the deposited data

How the results depend on the processing

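The F test called 16 members with all arrays. It called 16 with the mean of probe sets for each gene, 17 with an intensity trend, 18 with arrays centred on the median or without the dimmest 30% of genes, 21 with repeated quantile normalization, 24 with array weights and 28 with VIII-IX and IX-XI joined as 1 group, an alternative chosen after seeing the data. Over all genes, 19.9% passed with all arrays, and in the same order 19.8%, 21%, 20.3% or 29.6%, 21.5%, 23.2% and 25.8%. With VIII-IX sample 2 and IX-XI sample 2 both left out, 0 members passed (and 0 ranged 2-fold with a call, 0 were called in XII-I, VIII-IX or IX-XI, 0 at any step, and 0 pathway genes passed), and 0.0953% of all genes did. Array weights gave 2 calls in XII-I, 10 in IV-VI, 0 in VIII-IX and 15 in IX-XI. For contrasts and steps, the share of all genes called under an alternative was not counted. The single IX-XI call became 2 with an intensity trend or without the dimmest genes and 5 with repeated quantile normalization. Whether sample numbers pair the samples is not settled here. Deviations of same-numbered samples correlated at -0.35 to 0.54, over 0.1 in 7 of 15 pairs of groups. With the number as a replicate block, 20 members passed the F test (20.8% of all genes), 6 were called in II-IV, 11 in VIII-IX, 4 in IX-XI and 17 over the steps. Leaving out 1 array gave 0 to 17 members past the F test, 0 to 7 that also ranged 2-fold, 0 to 14 calls in XII-I, 0 to 6 in II-IV, 0 to 4 in IV-VI, 0 to 1 in VII, 0 to 11 in VIII-IX, 0 to 4 in IX-XI, 0 to 20 over the steps and 9 to 28 pathway genes. For the 16 members past the F test, the group highest with all arrays kept a higher mean than the lowest in all 336 combinations of a member and an alternative. Much of this was fixed in advance. The replicate block, array weights, intensity trend and removal of dim genes left these differences as they were, and a leave-out changes only the mean of its own group. The groups were also picked from these same arrays, so the count does not measure how firm the order is. The cause of the shifts in the counts of calls was not tested. The number of arrays limits what can be called.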

Other observations

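The probe sets that name several F-box genes of the chromosome 9 cluster were not tested. The set for Fbxw28, Fbxw22, Fbxw19 and Fbxw14 had group means from 6.68 log2 in VII to 6.90 in VIII-IX, and that for Fbxw16 and Fbxw19 from 5.30 in VII to 5.52 in IX-XI. The dimmer set of Fbxo31 ranged by 0.5 log2, and the brighter by 0.68, and both were highest in VII and lowest in XII-I. In IX-XI the dimmer set had a mean of 9.14, next to its 9.15 in VII, while the brighter was at 8.90, below its 9.39 in VII. The dimmer set of Fbxl7 ranged by 0.15 log2 and the brighter by 0.14.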
